A study of Mus musculus with 8 samples.

Results

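The subunits of Polycomb Repressive Complex 2 (PRC2) were examined as a set of 10 genes, *Eed*, *Ezh2*, *Suz12*, *Ezh1*, *Jarid2*, *Mtf2*, *Phf1*, *Phf19*, *Aebp2* and *Rbbp4*, on expression arrays of mouse embryos at embryonic day 8.5 (E8.5). Members were taken as every probe whose RefSeq accession belongs to 1 of these genes, which gave 16 of the 55681 distinct probes, for 10 of the 20660 genes named on the array. Each of 8 whole embryos was measured on 1 single-colour array. Of these, 4 had a sire homozygous for the hypomorphic Eedl7Rn5-1989SB allele (HOM father) and 4 a heterozygous sire (HET father). All mothers were wild type, all parents had a C57bl6/129 background, and all 8 embryos were themselves heterozygous for the allele. The genotype of the embryo was thus the same in both groups, each of which held 2 female and 2 male embryos. The allele is a point mutation that lowers the function of the EED protein. It is carried by the whole animal, so the fathers were not mutant in the germline alone. By the study's account the sires were fewer than the embryos, and p-values therefore measure the spread between embryos rather than between fathers.

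PRC2 places methyl groups on lysine 27 of histone H3, and the trimethylated form, H3K27me3, marks repressed genes. EED, SUZ12 and a catalytic subunit, EZH2 or EZH1, form the core together with the histone-binding protein RBBP4. Accessory subunits direct the core to chromatin in alternative assemblies, 1 built with the Polycomb-like proteins MTF2, PHF1 or PHF19 and another with JARID2 and AEBP2. In the early mouse embryo the complex is known for holding developmental regulators silent until they are needed, and complete loss of EED, EZH2 or SUZ12 is lethal.

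Each value is a log2 signal relative to the 75th percentile of its array, so that 0 is that percentile itself. Of the 16 probes, 13 passed the expression filter, and these covered all 10 genes. Each of the 13 was well above background on all 8 arrays. The 3 others were further probes of *Ezh1* (A_55_P2017086), *Mtf2* (A_55_P2022624) and *Phf1* (A_55_P1954998), with normalised signals of -4.49 or lower on every array. They were well above background on 1, 1 and 2 of the 8 arrays, and no difference was computed for them. The levels of different probes were not compared, since probes differ in how strongly they bind.

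The arrays of HOM fathers had been hybridised on 1 slide and those of HET fathers on another, so slide and father cannot be told apart in any value below. Between 51.9% and 60.8% of spots were well above background, and arrays correlated at 0.988 to 0.993 within groups and 0.982 to 0.992 between groups across probes, which are not independent replicates. The labelled tissue was checked with 12 genes of mesoderm, heart, neural tissue, endoderm and primitive blood, whose 14 probes were all well above background on every array. Their summed signal ran from 462 to 569 times the 75th percentile of the array in embryos of HOM fathers and from 585 to 646 in embryos of HET fathers, with no overlap, but the globins *Hbb-bh1* and *Hba-x* made up 90.9% to 93.4% of it. The median difference of the 14 probes was -0.03, with 1 higher and 1 lower at adjusted p below 0.05 (limma). Markers of neighbouring tissues were also present. The decidual prolactin *Prl8a2* ranged from 0.28 to 4.45 in embryos of HOM fathers and from -3.99 to 1.89 in embryos of HET fathers, and 3 of the 5 decidual probes were well above background on no array. On the same scale the trophoblast list ran from 14.2 to 22.8 in embryos of HOM fathers and from 23.4 to 45.1 in embryos of HET fathers, with no overlap, and *Gcm1*, a syncytiotrophoblast regulator, made up 81.6% to 99.6% of it. The tested *Gcm1* probes, well above background on every array, differed by -1.07, -0.99 and -0.35 (limma adjusted p = 0.0213, 0.0518 and 0.0964). Other trophoblast genes went the other way. *Psg17* was at 0.59 (limma adjusted p = 0.00485). Its signals were only -4.01 or lower, well above background on 4 HOM and 2 HET father arrays. The *Prl3d1* probes were at 1.88 and 1.06 (limma adjusted p = 0.208 and 0.367), the second well above background on 3 and 2 arrays. The median difference of the 6 tested probes was 0.12. Summed yolk sac endoderm markers overlapped, at 391 to 499 and 441 to 482. The differences of their 7 tested probes were nevertheless all negative, from -0.41 to -0.02 with a median of -0.12. At adjusted p below 0.05, 1 of the 7 was lower (limma), compared with 9.08% of all tested probes. Of the trophoblast probes, none for *Tpbpa*, a defining gene of the ectoplacental lineage, passed the filter, and *Prl2c2* had no matched probe. The part of these tissues in the results below was not tested, apart from leaving out the 2 arrays with the highest *Prl8a2*.

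To determine whether the *Eed* genotype of the father was accompanied by a different level of PRC2 transcripts in offspring of the same genotype, the members were compared between embryos of HOM and HET fathers. *Ezh2* was slightly lower in embryos of HOM fathers, by 1.11-fold, at the edge of the looser threshold used. No subunit differed by 2-fold, and neither *Eed* nor *Suz12* passed the test. Of the 13 probes, 0 were called at the study's limits of adjusted p below 0.01 and at least 2-fold, which 1.24% of all 29732 tested probes met (limma). At adjusted p below 0.05 with no limit on fold, 1 of 13 passed, *Ezh2*, which was lower, compared with 21.3% of all tested probes in either direction and 9.08% that were lower. At an unadjusted p below 0.05, 2 of 13 passed, both lower, compared with 35.1% of all tested probes in either direction and 17.8% that were lower.

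*Eed* encodes the WD-repeat subunit that binds H3K27me3 and stimulates the enzyme, and it is the gene at which the fathers differed. Its probe (A_55_P2039611) had normalised signals of 4.72, 4.80, 4.69 and 4.68 in embryos of HOM fathers and 4.72, 4.70, 4.77 and 4.66 in embryos of HET fathers. The groups overlapped, and the highest value was HOM father replicate 2. The means were 4.72 ± 0.06 and 4.71 ± 0.05 (mean ± SD, *n* = 4), a difference of 0.01 with a 95% interval of -0.10 to 0.12 (limma adjusted p = 0.904). The files do not say whether the probe tells the mutant transcript from the wild-type one.

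*Ezh2* encodes the main catalytic subunit of PRC2 in dividing cells. Its probe (A_55_P2041397) had signals of 3.40, 3.43, 3.46 and 3.45 in embryos of HOM fathers and 3.62, 3.52, 3.62 and 3.59 in embryos of HET fathers. All 4 HOM father arrays lay below all 4 HET father arrays. The means were 3.44 ± 0.03 and 3.59 ± 0.05 (mean ± SD, *n* = 4), and the difference was -0.15 with a 95% interval of -0.26 to -0.05 (limma adjusted p = 0.0486). The adjusted p was 0.0517 with the percentile taken over unflagged spots, 0.142 with the replicate number as a block, and between 0.0474 and 0.119 when 1 array was left out. Without the 2 HOM father arrays of highest *Prl8a2* the difference was -0.16 (limma adjusted p = 0.144), and in whole embryos fewer cells that express the gene and less RNA per cell cannot be told apart.

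*Suz12* encodes the scaffold that holds the core together. Its probe (A_51_P214796) had signals of 2.48, 2.66, 2.42 and 2.47 in embryos of HOM fathers and 2.59, 2.61, 2.52 and 2.48 in embryos of HET fathers. HOM father replicate 2 was the highest of the 8 and the groups overlapped. The means were 2.51 ± 0.10 and 2.55 ± 0.06 (mean ± SD, *n* = 4), with a difference of -0.04 and a 95% interval of -0.19 to 0.10 (limma adjusted p = 0.669).

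**Figure D1:**
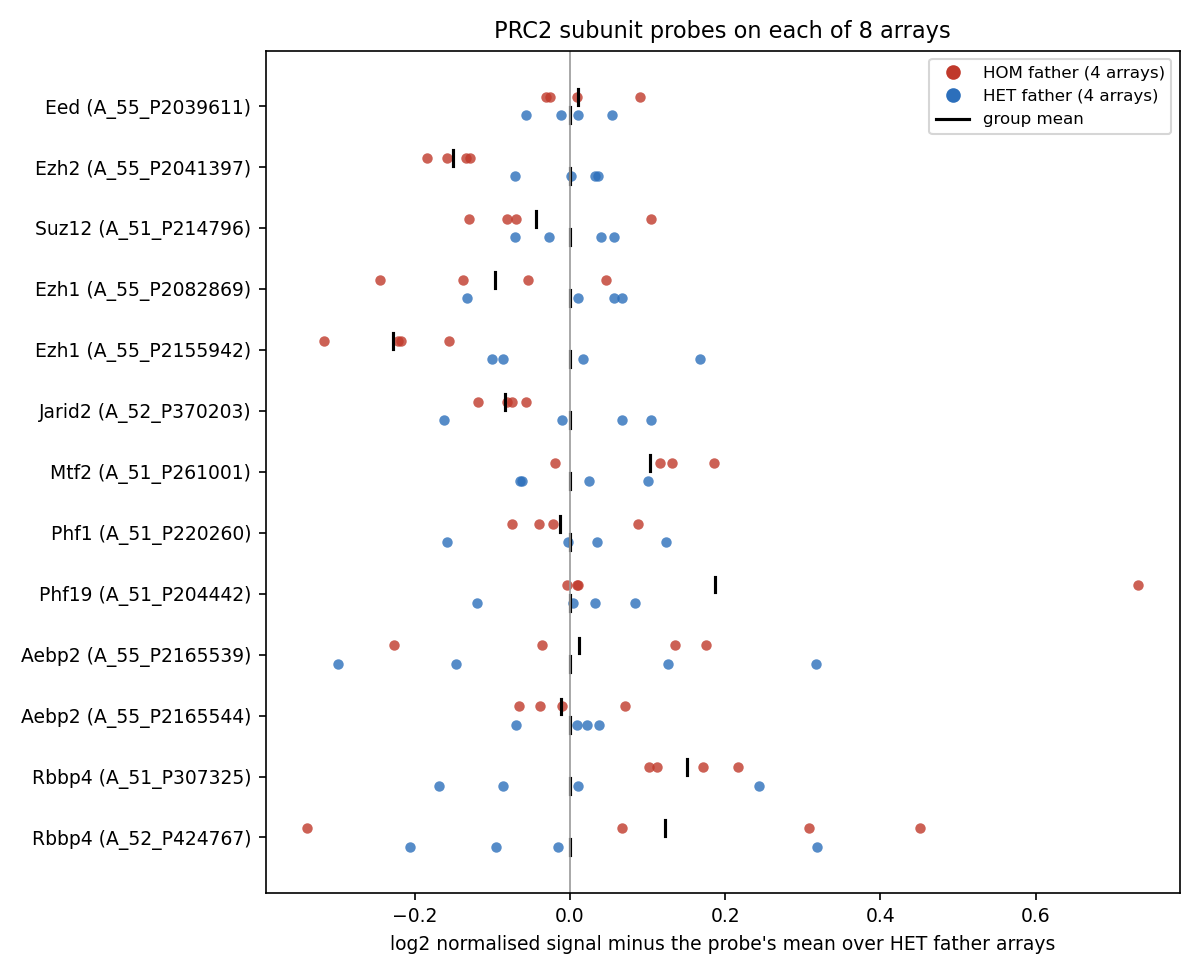
Normalised log2 signal of the 13 tested PRC2 probes on each array, on the x axis as the deviation from the probe's own mean over the 4 HET father arrays, with HOM father arrays in red, HET father arrays in blue and a black bar at each group mean. The groups are apart only for *Ezh2* and for *Ezh1* probe A_55_P2155942, and HOM father replicate 2 stands alone at the right for *Phf19*.

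The sequences upstream of the core genes are shown so that *Ezh2* can be read beside *Eed* and *Suz12*, its partners in the complex, which did not pass the test. Each is the 250 bases before the RefSeq transcription start on GRCm38.p6, on the gene's own strand. Capitals mark 2 sets of letters, searched on both strands, and no matches overlapped in these sequences. The first was an E2F-like set of TTTCGCGC, TTTGGCGC and TTTCCCGC, letters that E2F cell cycle factors are known to bind. The second was CCAAT, the letters of the NF-Y factor.

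Eed, chr7:89980977-89981226, minus strand: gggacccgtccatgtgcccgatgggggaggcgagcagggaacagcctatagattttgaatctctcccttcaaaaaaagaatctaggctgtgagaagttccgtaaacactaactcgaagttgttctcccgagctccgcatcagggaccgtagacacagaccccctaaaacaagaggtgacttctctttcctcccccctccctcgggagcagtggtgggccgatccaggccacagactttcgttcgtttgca

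Ezh2, chr6:47595031-47595280, minus strand: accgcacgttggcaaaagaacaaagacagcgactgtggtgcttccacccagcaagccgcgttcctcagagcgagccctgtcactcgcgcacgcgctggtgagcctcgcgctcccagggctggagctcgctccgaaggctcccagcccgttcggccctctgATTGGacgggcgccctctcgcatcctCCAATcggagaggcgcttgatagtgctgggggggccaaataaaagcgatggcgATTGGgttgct

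Suz12, chr11:79992856-79993105, plus strand: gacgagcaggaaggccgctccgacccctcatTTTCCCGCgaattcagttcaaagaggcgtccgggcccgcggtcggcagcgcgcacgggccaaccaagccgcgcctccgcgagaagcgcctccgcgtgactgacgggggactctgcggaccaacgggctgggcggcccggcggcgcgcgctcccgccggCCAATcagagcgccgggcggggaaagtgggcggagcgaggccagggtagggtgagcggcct

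The *Ezh2* sequence held CCAAT 3 times, at 90, 64 and 11 bases before the start, the middle one on the forward strand and the others on the reverse strand. The *Suz12* sequence held TTTCCCGC 219 bases before the start and CCAAT 61 bases before it. The *Eed* sequence held neither set in this window. CCAAT was present in 33.8% and an E2F-like match in 1.53% of the 32851 promoters of the table. All 10 members had a promoter in the table, 14 in all, of which 6 held CCAAT and 2 an E2F-like match, those of *Suz12* and *Phf19*. CpG pairs were frequent at *Ezh2* and *Suz12*, with 23 and 37 in 250 bases, and less so at *Eed* with 12, compared with a median of 6 over all promoters. Of the 14 member promoters, 8 were at or above the 75th percentile in CpG pairs. The shares over all promoters were not matched for CpG pairs. These matches describe letters and were not tied to binding in these embryos, and their relation to the differences by father was not tested.

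*Ezh1* encodes the alternative catalytic subunit, which is known to be less active than EZH2 and more prominent in non-dividing cells. It was measured by a pair of probes, neither of which passed at adjusted p below 0.05. Probe A_55_P2155942 ranged from 0.37 to 0.53 in embryos of HOM fathers and from 0.59 to 0.85 in embryos of HET fathers, with means of 0.46 ± 0.07 and 0.69 ± 0.12 (mean ± SD, *n* = 4). The groups did not overlap, and the difference of -0.23 (95% interval -0.40 to -0.06) missed the threshold (limma adjusted p = 0.0603). It passed with a trend and robust variance (limma adjusted p = 0.0447) and under median scaling (0.0118), and its adjusted p over all 21 alternatives ran from 0.0118 to 0.252. The other probe, A_55_P2082869, had means of 2.72 ± 0.12 and 2.82 ± 0.09, and its groups overlapped (difference -0.10, limma adjusted p = 0.413). Both probes carry the same RefSeq accession, and the files do not give their position in the transcript.

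*Rbbp4* encodes a WD-repeat protein that binds histones and also serves in other chromatin complexes. Its probe A_51_P307325 had means of 5.63 ± 0.05 and 5.48 ± 0.18 (mean ± SD, *n* = 4), ranging from 5.58 to 5.70 in embryos of HOM fathers and from 5.31 to 5.72 in embryos of HET fathers. HET father replicate 1 was the highest of the 8, and the groups overlapped. The difference was 0.15 (95% interval -0.06 to 0.36, limma adjusted p = 0.273), and without HET father replicate 1 it was 0.23 (limma adjusted p = 0.0481). Probe A_52_P424767 had means of -0.93 ± 0.35 and -1.05 ± 0.23 and a difference of 0.12 (limma adjusted p = 0.682). Its values spread from -1.39 to -0.60 among HOM father arrays and from -1.25 to -0.73 among HET father arrays, so the groups overlapped.

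The Polycomb-like proteins bind CpG-rich DNA and marked histones and bring the core to its targets. *Mtf2* (A_51_P261001) ranged from 2.91 to 3.12 in embryos of HOM fathers and from 2.87 to 3.03 in embryos of HET fathers. Its means of 3.03 ± 0.09 and 2.93 ± 0.08 (mean ± SD, *n* = 4) differed by 0.10 (limma adjusted p = 0.291). *Phf1* (A_51_P220260) had means of -1.32 ± 0.07 and -1.30 ± 0.12, a difference of -0.01 (limma adjusted p = 0.923). *Phf19* (A_51_P204442) had means of -1.81 ± 0.36 and -2.00 ± 0.09, a difference of 0.19 that 1 array decided (limma adjusted p = 0.472). HOM father replicate 2 was at -1.27, while the other HOM father arrays were between -2.00 and -1.99 and the HET father arrays between -2.12 and -1.91. Without that array the *Phf19* difference was 0.01.

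JARID2 and AEBP2 are the accessory subunits of the other assembly, in which JARID2 can itself be methylated by PRC2 and AEBP2 stabilises the complex. *Jarid2* (A_52_P370203) ranged from 1.36 to 1.42 in embryos of HOM fathers and from 1.32 to 1.59 in embryos of HET fathers. Its means of 1.40 ± 0.03 and 1.48 ± 0.12 (mean ± SD, *n* = 4) differed by -0.08 (limma adjusted p = 0.408). *Aebp2* was measured by a pair of probes with different accessions. Probe A_55_P2165544 (NM_001005605) had means of 1.088 ± 0.059 and 1.099 ± 0.047, a difference of -0.01 (limma adjusted p = 0.908). Probe A_55_P2165539 (NM_009637) had means of -0.01 ± 0.18 and -0.02 ± 0.28, a difference of 0.01 (limma adjusted p = 0.963). The groups overlapped for *Jarid2* and for both *Aebp2* probes.

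Over the 13 probes the differences by father ran from -0.23 to 0.19, with 6 positive and 7 negative and a median of -0.01, compared with a median of -0.03 over all tested probes. The median size of the difference was 0.10 on the log2 scale for the members and 0.16 for all tested probes. Scaling each array to its median instead moved the median difference of all tested probes to -0.22, and all 13 member differences were then negative. Relative to that shift *Eed* was 0.04 above the median of all probes and *Ezh2* 0.12 below it. This matches the 75th percentile (0.04 above and 0.12 below) by arithmetic, since either scaling moves all probes of an array alike. Under quantile normalisation, which does not, *Eed* was 0.10 above the median and *Ezh2* 0.05 below it. The groups did not overlap for 2 of the 13 probes, both with all HOM father arrays below all HET father arrays, while 13.5% of all tested probes were apart in that direction.

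**Figure D2:**
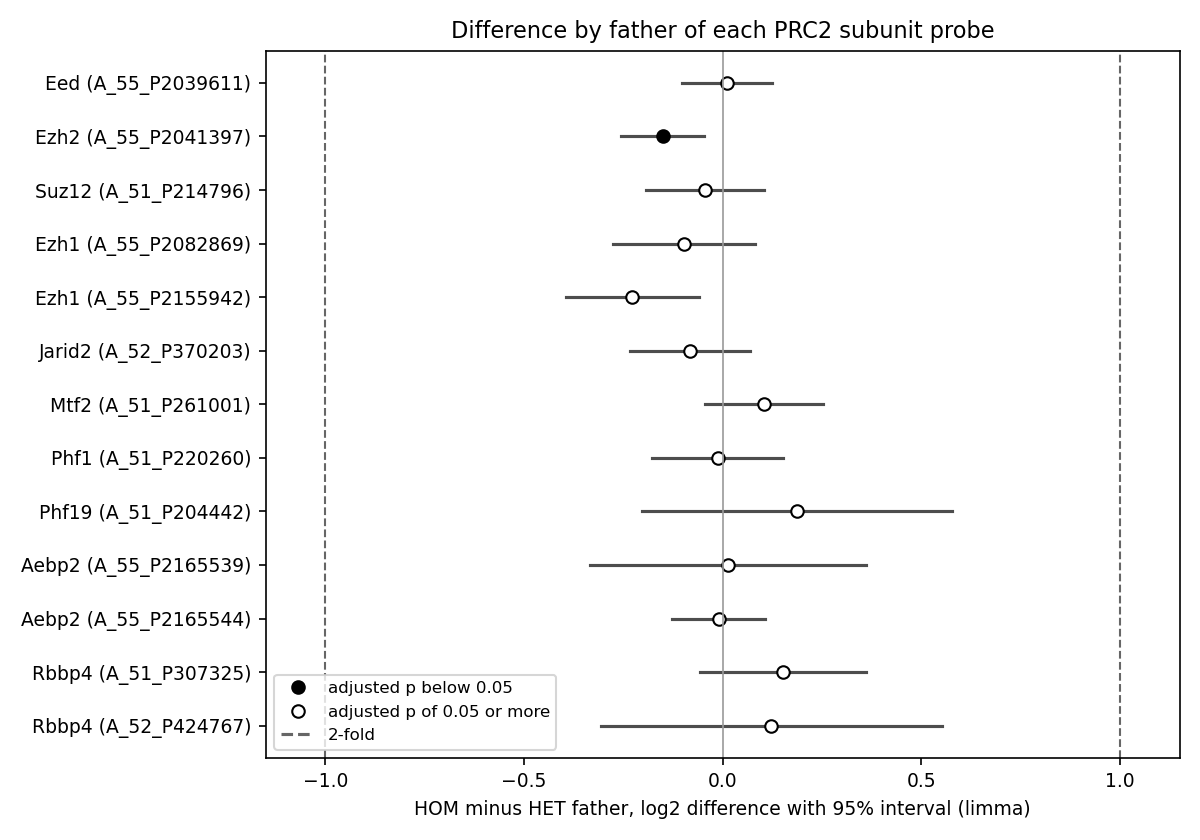
Difference by father of each tested PRC2 probe on the x axis as HOM minus HET father on the log2 scale, with the 95% interval from limma (4 arrays against 4), a filled point at adjusted p below 0.05 and dashed lines at 2-fold. Every interval lies inside the 2-fold lines, and only *Ezh2* is filled, an adjusted p of 0.0486 that became 0.0517 with the percentile over unflagged spots.

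All 13 intervals of the difference by father lay within 1.5-fold in either direction, and the bound farthest from 0 was 0.58, that of *Phf19*. They stayed within 1.5-fold under 6 of 21 alternatives and within 2-fold under all 21, with the bound farthest from 0 at 0.75. The standard deviation within groups ran from 0.04 for *Ezh2* to 0.29 for the dimmer *Rbbp4* probe, with a median of 0.10 compared with 0.13 over all tested probes. It was below that median for 9 of the 13.

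How far the *Ezh2* result rests on the processing was followed through 21 alternatives. Its difference was negative under all 21 and ran from -0.34 under median scaling to -0.08 under quantile normalisation. Its adjusted p was below 0.05 under 5 of the 21 and ran from 0.00765 to 0.317.

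**Figure D3:**
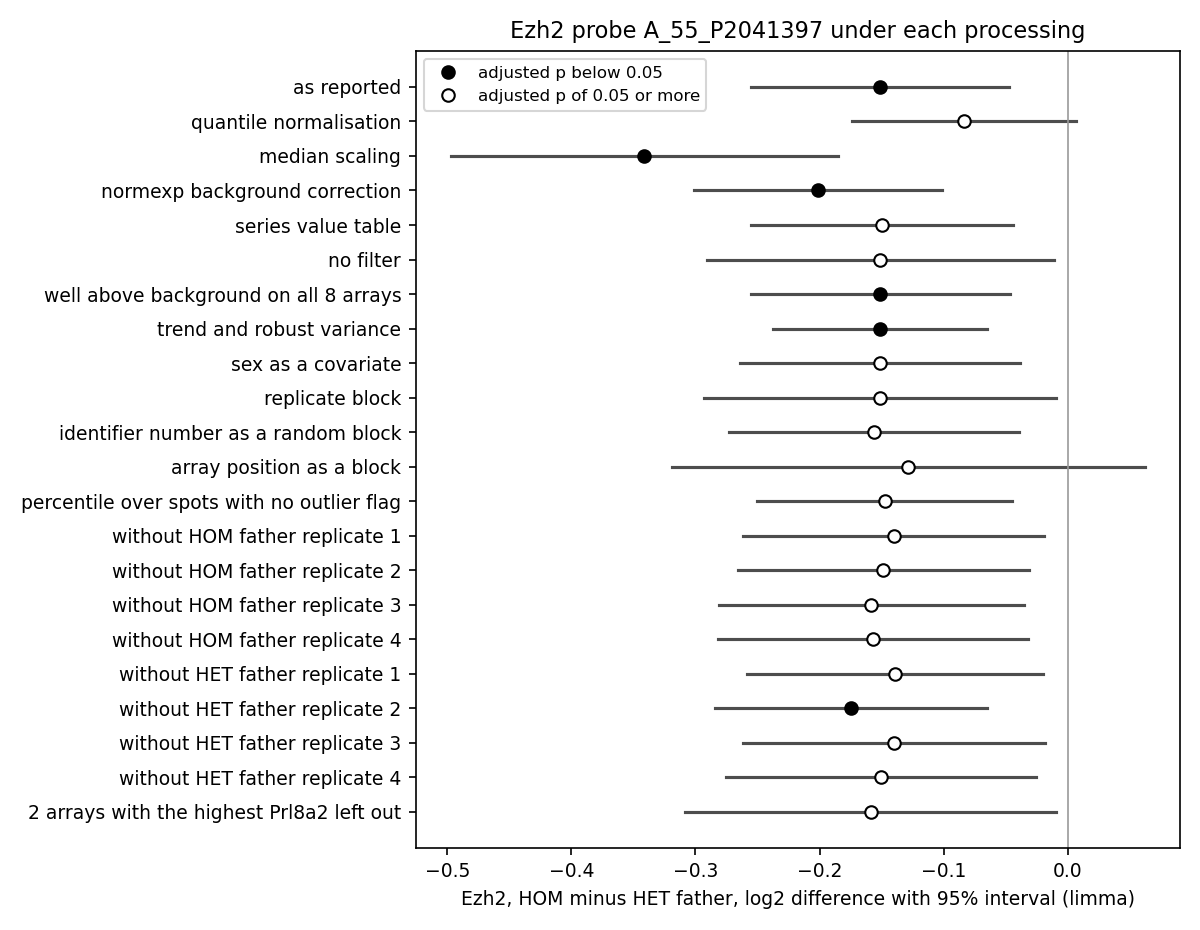
Difference by father of the *Ezh2* probe, HOM minus HET father on the log2 scale with its 95% interval, as reported in the top row and under each of 21 alternatives below it, filled where the adjusted p was below 0.05. All points lie left of 0, from -0.34 to -0.08, and filled and open points are mixed.

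Since each group held 2 females and 2 males, the members were next compared between the sexes with father as a covariate. The difference of females minus males was 0.07 for *Eed* (limma adjusted p = 0.927), 0.01 for *Ezh2* (limma adjusted p = 0.975) and 0.07 for *Suz12* (limma adjusted p = 0.927), and none of these passed the test. Of the 13 probes, 0 were at adjusted p below 0.05, compared with 0.121% of all tested probes, and 0 were at an unadjusted p below 0.05, compared with 5.19% (limma). The differences ran from -0.07 for *Mtf2* to 0.17 for *Phf19*, and the lowest unadjusted p was 0.0858, for *Ezh1* probe A_55_P2082869 at 0.13.

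Whether the difference by father depended on the sex of the embryo was tested with an interaction term. For *Ezh2* the difference by father was -0.21 in females and -0.10 in males, and the difference between the sexes was -0.11 with a 95% interval of -0.34 to 0.12 (limma adjusted p = 0.999). For *Eed* it was 0.02 in females and 0.01 in males. *Phf19* was at 0.39 in females and -0.02 in males, and its female value holds the high array, HOM father replicate 2. Of the 13 probes, 0 passed the interaction test at adjusted p below 0.05, compared with 0.0639% of all tested probes, and 0 were at an unadjusted p below 0.05, compared with 4.5% (limma). With 2 arrays in each cell, the intervals of these interactions were wide, reaching 1.21 for *Phf19* and -1.27 for the dimmer *Rbbp4* probe.

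**Figure D4:**
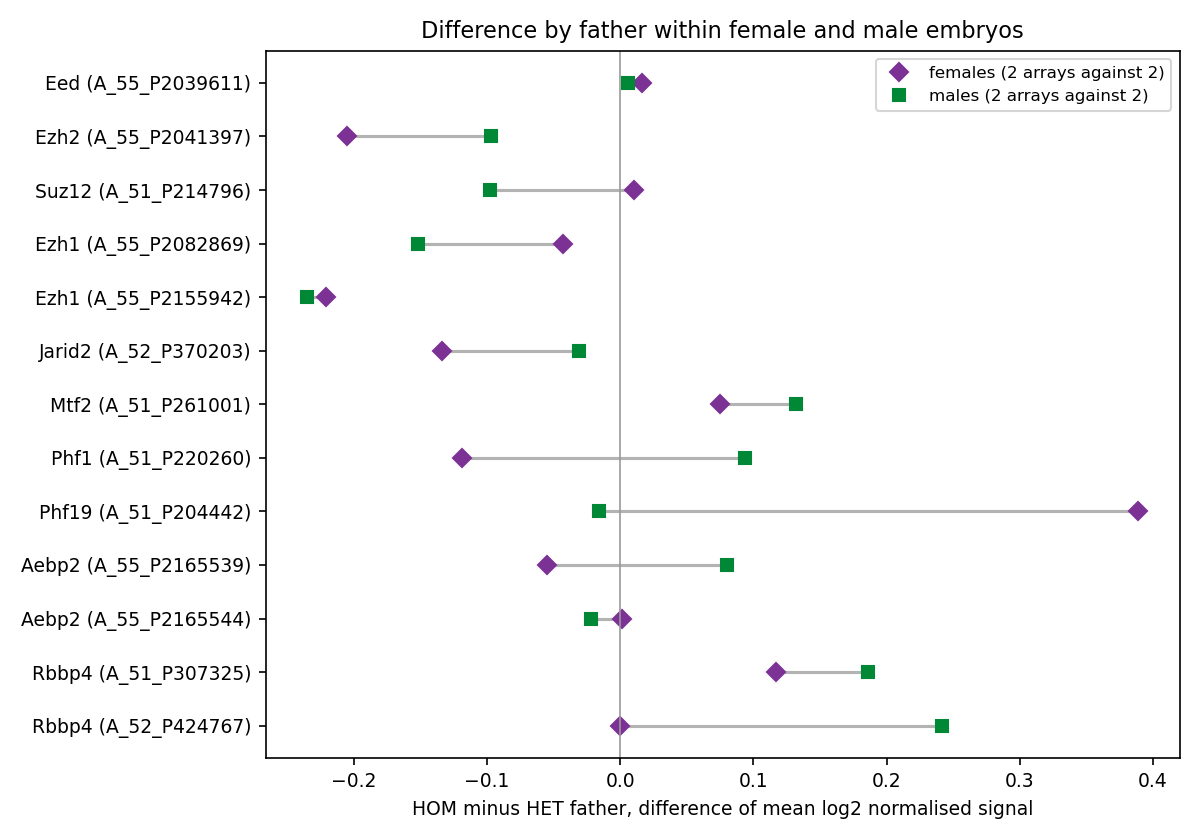
Difference of mean log2 normalised signal between HOM and HET father embryos for each tested PRC2 probe, within females (diamonds) and within males (squares), 2 arrays against 2 in each. *Ezh2*, *Jarid2* and both *Ezh1* probes are left of 0 in both sexes, and the signs differ between the sexes for 5 probes, those of *Suz12*, *Phf1*, *Phf19* and *Aebp2*.

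Genes that work beside the complex were described by lists. Of 7 genes of other PRC2-associated proteins, all 7 had tested probes, 14 in all, of which 2 were lower and 0 higher at adjusted p below 0.05 (9.08% of all tested probes were lower), with a median difference of -0.10. Both were probes of *Elob*, which encodes elongin B, a partner in an assembly of PRC2 and also part of elongin and ubiquitin ligase complexes. Its probe A_55_P2015692 had signals of 5.09, 5.20, 5.12 and 5.17 in embryos of HOM fathers and 5.41, 5.41, 5.41 and 5.39 in embryos of HET fathers, a difference of -0.26 (limma adjusted p = 0.00617). The groups did not overlap, as in this direction for 13.5% of all tested probes. The other passing *Elob* probe differed by -0.24 (limma adjusted p = 0.00889), and the remaining one by -0.34 (limma adjusted p = 0.0653). Over the 21 alternatives the count of the list ran from 0, with no filter and with array position as a block, to 8 under median scaling.

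The H3K27 demethylases remove the mark that PRC2 places. *Kdm6b* had signals of 2.04, 2.16, 2.13 and 2.17 in embryos of HOM fathers and 2.34, 2.49, 2.35 and 2.39 in embryos of HET fathers. The groups were apart, as they were in this direction for 13.5% of all tested probes, and the difference was -0.27 (limma adjusted p = 0.0122). *Kdm6a*, the X-linked enzyme, differed by -0.32 with overlapping groups and did not pass (limma adjusted p = 0.175). Thus both demethylase probes had negative differences. At adjusted p below 0.05, 1 of 2 was lower and 0 were higher, compared with 9.08% of all tested probes that were lower. The count was 2 under median scaling and 0 with no filter, with array position as a block and without the 2 arrays of highest *Prl8a2*.

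Genes known as PRC2 targets, 16 developmental and cell cycle regulators, had 14 tested probes for 13 genes, with a median difference of -0.08. Of these probes 1 was lower and 0 were higher at adjusted p below 0.05, the homeobox gene *Msx1* at -0.27 (limma adjusted p = 0.0405), compared with 9.08% of all tested probes that were lower. The count was 0 under 14 of the 21 alternatives, among them quantile normalisation, the replicate block and 7 of the 8 fits with 1 array left out, and reached 4 under median scaling. Of the 16 genes, 3 had no tested probe. Genes whose imprinting rests on maternal H3K27me3, 5 in all with 8 tested probes, had a median difference of 0.02, and 0 passed at adjusted p below 0.05. That count was 0 under 19 of the 21 alternatives, 2 under median scaling and 1 without the 2 arrays of highest *Prl8a2*. None of the 4 lists held a probe that was called at 2-fold or that passed by sex or by interaction. *Elob*, *Kdm6b*, *Kdm6a* and *Msx1* were chosen for naming after their values were seen.

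**Figure D5:**
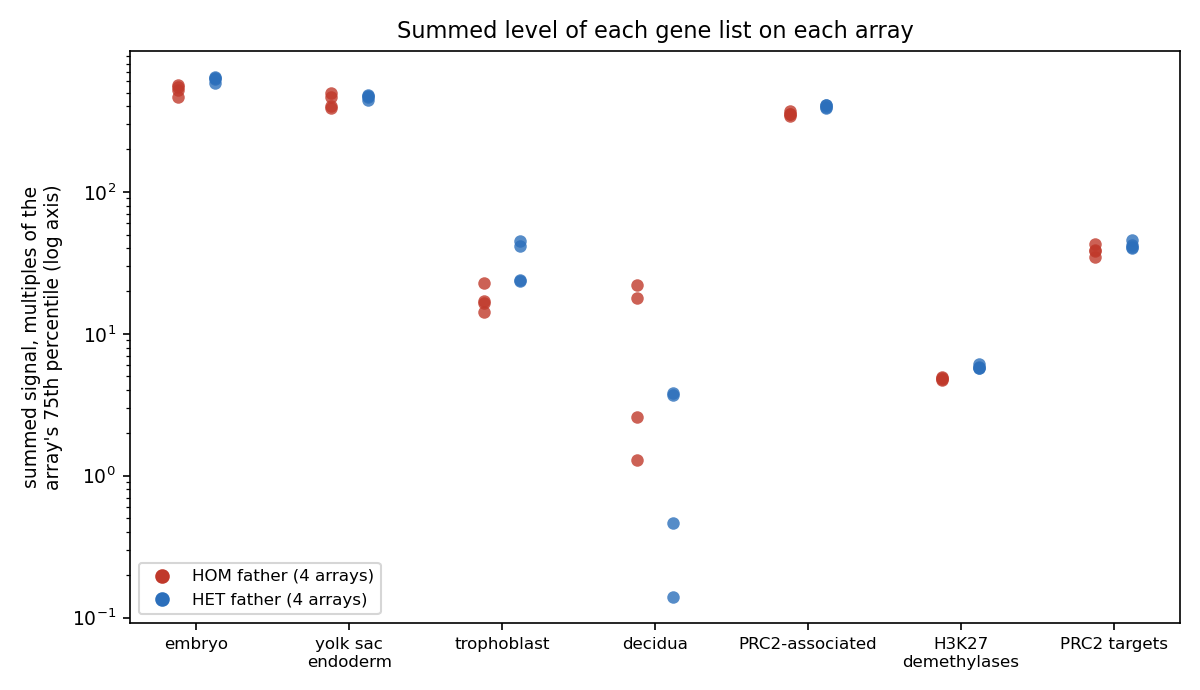
Summed signal of the probes of each list but the imprinted one on each array, in multiples of the array's 75th percentile on a log axis. HOM father arrays are in red and HET father arrays in blue. The imprinted list, not drawn, overlapped by father (18.9 to 22.3 against 19.0 to 20.1). The decidual list spreads from 0.14 to 22.1 across arrays. The H3K27 demethylases (4.70 to 4.96 against 5.74 to 6.12) and the PRC2-associated list (340 to 368 against 390 to 408) are apart by father with little spread. The embryo and trophoblast lists are apart by father as well. Bright probes weigh most in such sums. The demethylase sum is mostly *Kdm6b*, at 2.04 to 2.49 on the log2 scale. The groups of *Kdm6a* overlapped, at -1.22 to -0.77 against -0.97 to -0.44. In the PRC2-associated list the *Elob* probes differed by -0.24, -0.26 and -0.34, and those of *Rbbp7*, also bright, by -0.01 and -0.03.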

How the data were processed

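Gene expression was measured with Agilent SurePrint G3 Mouse GE 8x60K arrays in 8 embryos, grouped by the sample labels. The deposited spot intensity values were made by the authors with Agilent Feature Extraction 11.0.1.1, which subtracts background and removes spatial trends, with no normalisation between arrays. The deposited spot flags are other values of 0 or 1. The authors' series table held the same intensity values rounded, within 0.497%.

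Processed signals were log2-transformed and shifted so that each array's 75th percentile over its 59305 non-control spots became 0. Outlier-flagged spots were then dropped and spots of 1 probe averaged. Testing required a signal flagged well above background, and not in the lowest 20% of its array, on at least 4 of 8 arrays, which kept 29732 of 55681 probes (53.4%). Probes were named by accession through RefSeq on GRCm38.p6 (27235 matched). The array design used mm9, and no probe coordinates are given.

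Tests were two-sided in limma 3.58.1 under R 4.3.3, with Benjamini-Hochberg adjustment over all tested probes and no covariate in the fit by father. The filter and the limits for calls follow the study's methods, and the fit was tested on simulated data. The members, lists and tests were chosen with earlier results of these data known. Values on each array are given for *Eed*, *Ezh2*, *Suz12* and any member at adjusted p below 0.05. Alternatives covered scaling, background (normexp on the median spot signal, offset 50), filter, variance model, covariates, blocks and left-out arrays. The percentile over unflagged spots and the fit without the 2 arrays of highest *Prl8a2* were chosen after seeing the data.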

Additional observations from a re-analysis of the deposited data

Results flagged for a closer look

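Of the 26 groups of 4 arrays examined, 1 held an array that stood apart. For *Phf19* (A_51_P204442) HOM father replicate 2 was at -1.27, while the other HOM father arrays lay between -2.00 and -1.99, a gap of 0.981 of the group's range, past Dixon's limit. Chance flags about 1 in 20 groups, or 1.3 of 26.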

How the results depend on the processing

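No member probe was called at 2-fold under any of the alternatives run, and the counts by sex and for father by sex stayed at 0 in those fitted (the interaction could not be fitted with array position as a block, for lack of residual degrees of freedom). The count of member probes at adjusted p below 0.05 by father, 1 as reported, was 3 under median scaling (*Ezh1*, *Jarid2*, *Ezh2*), 2 with a trend and robust variance, and 0 under quantile normalisation, with the series value table, with no filter, with sex as a covariate, with the identifier number as a random block, with array position as a block, with the percentile over unflagged spots and without the 2 arrays of highest *Prl8a2*. Leaving out 1 array gave 0 to 1. The passing probe was *Ezh2* without HET father replicate 2 and *Rbbp4* (A_51_P307325), which was higher, without HET father replicate 1. With any other array left out the count was 0. The identifier number leads each embryo's label, which does not explain it. In each group some embryos share this number, and the correlation fitted within it was 0.303. Embryos of a group may therefore not be independent. The count was 0 with the replicate number as a block. Same-numbered arrays deviated together at 0.189, -0.086, -0.132 and 0.145. The HET father array closest to its HOM father array bore the same number for replicates 1 and 4, not for 2 and 3. By the study's account HOM and HET sires were brothers, but the labels do not name them. So few arrays cannot show whether the numbers pair the embryos. Calls over all tested probes fell from 370 to 217 with that replicate block, 143 with normexp, 211 without the high *Prl8a2* arrays and 0 with array position as a block. At adjusted p below 0.05 there were 6335 of all tested probes as reported, 12936 under median scaling, 3522 with the replicate block, 3450 without the high *Prl8a2* arrays, 3095 with no filter and 1427 with array position. Differences that changed sign were all under 0.2 in size. Under median scaling they were *Eed* -0.18, *Mtf2* -0.087, *Phf19* -0.0034, *Aebp2* (A_55_P2165539) -0.18 and *Rbbp4* -0.039 and -0.069. Under quantile normalisation they were *Suz12* 0.0024 and *Aebp2* (A_55_P2165544) 0.015. With array position as a block they were *Phf1* 0.050 and *Aebp2* (A_55_P2165544) 0.0016. Without the 2 high *Prl8a2* arrays they were *Eed* -0.011, *Phf1* 0.0061 and *Rbbp4* (A_52_P424767) -0.14. With 1 array left out the range was -0.016 to 0.029 for *Eed*, -0.065 to 0.029 for *Phf1*, -0.086 to 0.12 for *Aebp2* A_55_P2165539 and -0.038 to 0.0079 for A_55_P2165544. The causes were not tested.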
